A study of Mus musculus with 12 samples.

Results

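The 10 genes described here (Myl7, Myl4, Myh6, Mybpc3, Actc1, Tnnt2, Tnni3, Ryr2, Sln and Nppa) are genes of heart muscle that were measured in lung RNA, and they are 10 of the 35599 genes in the table. They were found by gene symbol, and all 10 were chosen by their levels in these libraries, as cardiac muscle genes that had been seen to differ between the groups. Their levels, folds and group differences are therefore given as a description, without a test. In ND-RHL lungs their summed level averaged 455 ± 270 FPKM, against 50.4 ± 14.1 FPKM in AE-PF lungs and 475 ± 132 FPKM in saline lungs (SD, n = 4 each). FPKM is the number of sequenced fragments assigned to a gene divided by gene length and by the fragments of the library.

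Whole mouse lung was profiled by sequencing of polyadenylated RNA, with 4 libraries in each of 3 groups. The ND-RHL group received bleomycin and lipopolysaccharide (LPS) and then ND-RHL, a liposome carrying both nintedanib, an inhibitor of growth factor receptor kinases, and dexamethasone, a glucocorticoid, with hyaluronic acid (HA) and RGD peptides on its surface. The AE-PF group received the same bleomycin and LPS challenge, which models an acute exacerbation of pulmonary fibrosis, and no further treatment. The saline group was the control. No group that received a single agent or an empty liposome was analysed here, so no value below belongs to 1 agent of the combination. Strain, age and sex are not given in the labels used here. Whether the libraries of a group came from separate animals is not stated in the labels, and all p-values therefore refer to the spread between these samples, which may be partly technical.

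In mice, heart muscle is not confined to the heart: sleeves of striated cardiomyocytes, close to atrial muscle in their gene expression, surround the pulmonary veins and run along them into the lung. These cells contract with the atrium and have the same parts as other heart muscle cells, namely thick filaments of myosin, thin filaments of actin with the troponin complex, and a sarcoplasmic reticulum that stores and releases calcium. Lung cells proper use other myosins and actins, so RNA of these genes in a lung sample is usually read as heart muscle in the sample, although skeletal muscle can also make Actc1 and Sln. In bulk tissue, fewer heart muscle cells and less RNA per cell cannot be told apart.

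The markers of heart chambers were read beside the 10 genes. Of the genes known for atrial muscle, Mybphl averaged 7.93 ± 4.75 FPKM in ND-RHL lungs, 0.698 ± 0.582 FPKM in AE-PF lungs and 10.8 ± 4.02 FPKM in saline lungs (SD, n = 4 each). Kcnj3 and Kcnj5, the subunits of the acetylcholine-gated potassium channel of atrial muscle, averaged 1.71 and 1.21 FPKM in ND-RHL lungs, 0.0773 and 0.0955 FPKM in AE-PF lungs, and 2.17 and 1.81 FPKM in saline lungs. Not every atrial gene listed moved this way. Dkk3 had a log2 change of 0.35 in AE-PF against saline and -0.44 in ND-RHL against AE-PF, and Gja5 of -0.42 and -0.28. The 10 atrial genes listed summed to 61.7 to 103 FPKM in ND-RHL, 73.5 to 94.4 FPKM in AE-PF and 79.2 to 97.9 FPKM in saline libraries, so the groups overlapped. The ventricular light chain gene Myl2 had 4 fragments in the 4 ND-RHL libraries together, 6 in AE-PF and 6 in saline libraries. The ventricular transcription factor gene Irx4 had 0 fragments in ND-RHL libraries, 1 in AE-PF and 0 in saline libraries. The other 6 genes of the ventricular list, which other cell types also use, had fragments in every group, among them Myh7 (873 in ND-RHL, 290 in AE-PF and 1058 in saline libraries) and Pln (385, 46 and 646 in the same order). Atrial markers were present, and the label of pulmonary vein muscle is borne out only as far as an atrial type goes: muscle of the vein sleeve and a piece of attached atrium cannot be told apart in these files. The genes are called cardiac muscle genes below. Bmp10, a growth factor gene of the right atrium, was chosen for mention after its values were seen: it had 176 fragments in ND-RHL libraries, 175 of them in library 1, against 3 in AE-PF and 0 in saline libraries.

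Among the 12 libraries, 2 stood apart by marker lists that were drawn up with earlier results of these data known. ND-RHL library 4 and AE-PF library 2 held RNA of skeletal muscle and of squamous epithelium. Krt13, a keratin of squamous epithelium, was at 2950 FPKM in ND-RHL library 4 and at most 0.271 FPKM in the other ND-RHL libraries, at 899 FPKM in AE-PF library 2 and at most 0.0973 FPKM in the other AE-PF libraries, and at most 0.235 FPKM in saline libraries. The 20 skeletal muscle markers summed to 2070 FPKM in ND-RHL library 4 and 895 FPKM in AE-PF library 2. In the other 10 libraries that sum was 10.3 to 32.3 FPKM in ND-RHL, 8.33 to 8.89 FPKM in AE-PF and 11.3 to 158 FPKM in saline lungs. Counts over the cardiac gene lists are given with and without ND-RHL library 4 and AE-PF library 2. Saline library 3, which held the 158 FPKM, was kept in both. Depth was 16152379 to 21667129 fragments per library, and 14052 to 15020 genes per library reached 1 FPKM.

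Printed below from RefSeq (GRCm38.p6) are 4 promoters, each the sequence around a listed start of transcription. They are those of the 3 members with the highest levels and of Nppa, the member with the fewest fragments. Each runs 5′ to 3′ on the strand of its gene, from 250 bases before to 50 bases after the start that the table gives. Capitals mark a CArG box (the serum response factor motif), TATAAA, or CATTCC (the TEA domain factor motif), on either strand. They lie at chr11:5898733-5899032 (minus strand, Myl7), chr2:114052826-114053125 (minus strand, Actc1), chr14:54966558-54966857 (minus strand, Myh6) and chr4:148000472-148000771 (plus strand, Nppa). For Actc1 and Myh6 the whole window lies inside the annotated gene, whose 5′ end is at 114053548 and 54966927. The start used for these 2 genes is therefore not the outermost one.
Myl7: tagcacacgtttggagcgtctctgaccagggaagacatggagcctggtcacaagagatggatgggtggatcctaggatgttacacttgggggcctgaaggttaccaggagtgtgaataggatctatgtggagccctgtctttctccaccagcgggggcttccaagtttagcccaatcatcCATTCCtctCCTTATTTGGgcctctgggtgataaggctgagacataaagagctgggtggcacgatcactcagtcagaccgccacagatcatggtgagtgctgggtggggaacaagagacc
Actc1: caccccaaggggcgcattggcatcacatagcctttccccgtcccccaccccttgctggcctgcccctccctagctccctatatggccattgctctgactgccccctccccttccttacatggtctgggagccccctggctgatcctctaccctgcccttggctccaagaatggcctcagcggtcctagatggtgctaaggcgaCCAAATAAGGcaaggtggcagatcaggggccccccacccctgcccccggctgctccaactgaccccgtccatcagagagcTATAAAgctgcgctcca
Myh6: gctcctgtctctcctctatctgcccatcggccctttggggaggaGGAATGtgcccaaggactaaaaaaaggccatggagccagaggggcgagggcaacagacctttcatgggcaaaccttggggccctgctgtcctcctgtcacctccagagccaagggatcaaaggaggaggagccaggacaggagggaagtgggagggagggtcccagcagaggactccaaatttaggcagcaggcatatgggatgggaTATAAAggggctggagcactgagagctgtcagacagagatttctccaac
Nppa: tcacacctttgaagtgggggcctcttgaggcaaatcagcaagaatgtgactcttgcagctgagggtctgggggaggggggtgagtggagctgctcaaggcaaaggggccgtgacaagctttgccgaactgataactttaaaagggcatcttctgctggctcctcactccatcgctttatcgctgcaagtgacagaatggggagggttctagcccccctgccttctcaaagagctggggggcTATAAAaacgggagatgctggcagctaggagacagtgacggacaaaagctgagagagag

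The table held 10 promoters for 9 of the 10 members, and none of them for Sln. A CArG box was found in the promoters of Myl7 and Actc1, 61 and 47 bases before the given start, and 1.63% of all 32851 promoters of this length hold one. In Myl7 the CATTCC motif lay next to it, 70 bases before the start, and CATTCC was also found in Myh6 (as GGAATG on the strand shown, 206 bases before the start) and in Tnnt2. It occurs in 14.7% of all promoters. TATAAA was found for Actc1, Myh6 and Nppa, among 13.6% of all promoters, with its first base 33 bases after the given start for Actc1, 1 base after it for Myh6 and 9 bases before it for Nppa. The motif AGATAA, known from GATA factors, was found for Tnnt2, among 11.2% of all promoters. The MEF2 box, found in 0.557% of all promoters, was found in that of Mybpc3. Each motif was searched on both strands. A match describes the letters in this window and is not a binding site.

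Of the 10 members, the thick filament genes Myl7 and Myh6 had the largest fitted changes in ND-RHL against AE-PF and in AE-PF against saline alike when 1 FPKM was added, which understates the change of low genes. By limma-voom on fragments, the low gene Nppa had the largest, at 3.92 in ND-RHL against AE-PF and -4.59 in AE-PF against saline on the log2 scale. Myl7 (ENSMUSG00000020469, chr11:5896637-5898782, minus strand of GRCm38) encodes the atrial regulatory light chain of myosin. It was at 251, 45.0, 92.0 and 101 FPKM in ND-RHL libraries 1 to 4, at 11.2, 6.66, 8.81 and 4.31 FPKM in AE-PF libraries 1 to 4, and at 129, 85.0, 90.3 and 174 FPKM in saline libraries 1 to 4. Every ND-RHL and every saline library lay above every AE-PF library, while ND-RHL and saline libraries overlapped, with ND-RHL library 2 lowest and ND-RHL library 1 highest of the 8. The group means were 122 ± 89.1 FPKM in ND-RHL, 7.73 ± 2.93 FPKM in AE-PF and 120 ± 41.4 FPKM in saline lungs (SD, n = 4 each). The ND-RHL mean was 15.8 times the AE-PF mean, and the saline mean was 15.5 times the AE-PF mean.

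Myh6 (ENSMUSG00000040752, chr14:54941921-54966927, minus strand) encodes alpha-myosin heavy chain, the motor protein of atrial muscle and of the adult mouse heart. It was at 137, 11.5, 55.3 and 53.4 FPKM in ND-RHL libraries 1 to 4, at 8.16, 2.99, 6.33 and 2.78 FPKM in AE-PF libraries, and at 115, 85.3, 65.6 and 125 FPKM in saline libraries. ND-RHL library 2 lay just above the highest AE-PF library and far below the lowest saline library, and 3 of the 4 ND-RHL libraries were below every saline library. Of the stretches of 50 bases in its transcript, 22.6% also occur in other genes, nearly all in Myh7, so part of its fragments could have been counted for either gene. Fragments of the antisense gene Gm49130 on the other strand cannot be told apart if strand was not used in counting.

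Myl4 (ENSMUSG00000061086, chr11:104550663-104595753, plus strand), the atrial essential light chain, ran from 6.10 to 31.5 FPKM in ND-RHL libraries, from 0.929 to 2.23 FPKM in AE-PF libraries and from 13.9 to 27.2 FPKM in saline libraries. Mybpc3 (ENSMUSG00000002100, chr2:91118144-91136516, plus strand), cardiac myosin-binding protein C, ran from 0.952 to 10.8 FPKM in ND-RHL, from 0.425 to 0.833 FPKM in AE-PF and from 2.26 to 6.95 FPKM in saline libraries. For both, ND-RHL libraries lay above all AE-PF libraries, and for Mybpc3 the gap was narrow, since ND-RHL library 2 was close to AE-PF library 1. Myl4 overlaps 4 annotated genes on the other strand.

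**Figure D1:**
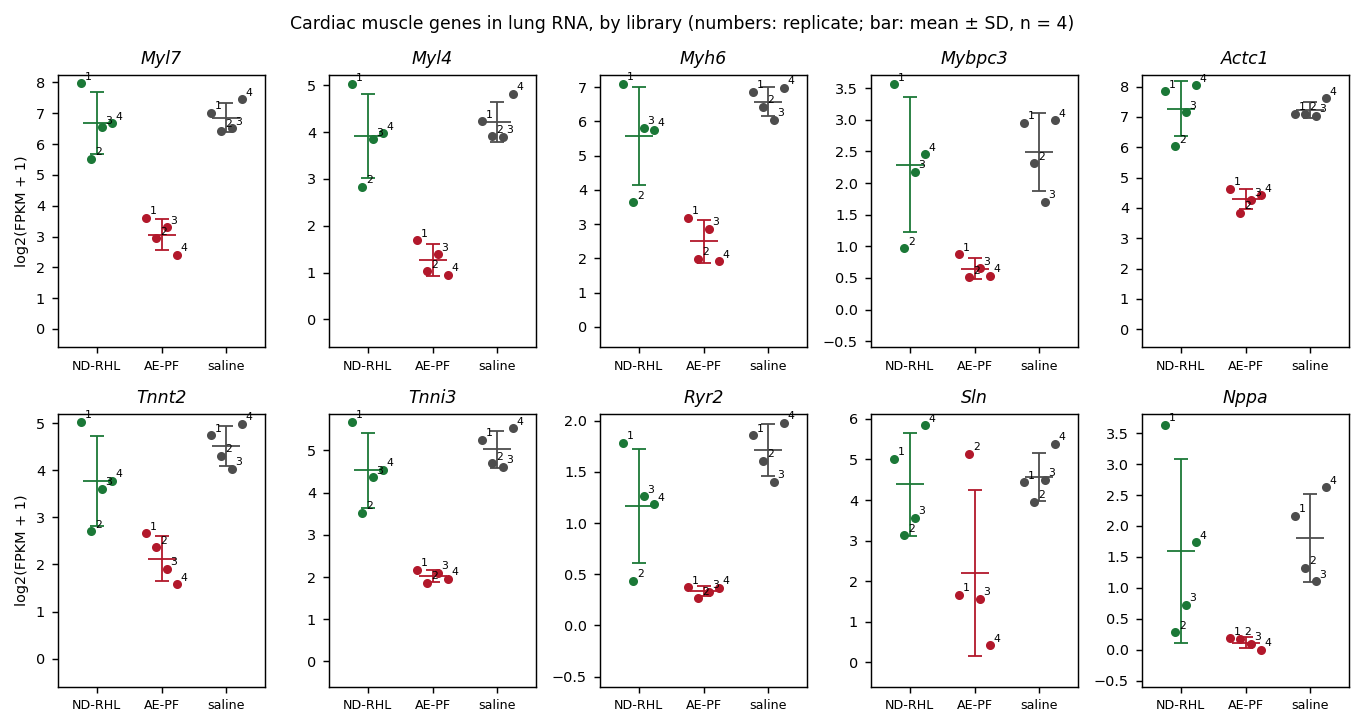
Level of each cardiac muscle gene in every library, as log2(FPKM + 1), in ND-RHL, AE-PF and saline lungs, where points are libraries with their replicate number and bars are mean ± SD of 4. The AE-PF libraries lie lowest for 9 of the 10 genes, AE-PF library 2 is high for Sln alone, and ND-RHL library 2 is the lowest ND-RHL library in each panel.

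Among the thin filament genes, Actc1 (ENSMUSG00000068614, chr2:114047282-114053548, minus strand) encodes cardiac alpha-actin, the main actin of heart muscle. It was at 230, 64.3, 141 and 264 FPKM in ND-RHL libraries 1 to 4, at 23.9, 13.4, 18.2 and 20.3 FPKM in AE-PF libraries, and at 137, 137, 131 and 196 FPKM in saline libraries. All ND-RHL and all saline libraries were above all AE-PF libraries. ND-RHL library 4, which holds skeletal muscle, had the highest Actc1 value of the 12 but not the highest value of any myosin gene among the members. AE-PF library 2, which also holds skeletal muscle, had the lowest Actc1 value of its group, 13.4 FPKM. The part of skeletal muscle RNA in Actc1 was not tested. Without ND-RHL library 4 and AE-PF library 2 the ratio of the ND-RHL to the AE-PF mean was 6.98, against 9.22 with them.

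Tnnt2 (ENSMUSG00000026414, chr1:135836354-135852260, plus strand) encodes cardiac troponin T, which ties the troponin complex to tropomyosin. It was at 31.7, 5.53, 11.2 and 12.7 FPKM in ND-RHL libraries 1 to 4, at 5.34, 4.14, 2.74 and 1.99 FPKM in AE-PF libraries, and at 25.9, 18.9, 15.4 and 30.7 FPKM in saline libraries. ND-RHL library 2 and AE-PF library 1 were almost level, and only ND-RHL library 1 reached the saline range. Tnni3 (ENSMUSG00000035458, chr7:4518305-4524229, minus strand), cardiac troponin I, the inhibitory subunit, averaged 25.6 ± 17.1 FPKM in ND-RHL, 3.07 ± 0.397 FPKM in AE-PF and 32.7 ± 10.2 FPKM in saline lungs (SD, n = 4 each). Its 4 AE-PF libraries, from 2.63 to 3.5 FPKM, were the most alike of any member in any group. Tnni3 overlaps Dnaaf3 on the same strand.

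The calcium-handling members differed from each other. Ryr2 (ENSMUSG00000021313, chr13:11553102-12106945, minus strand) encodes the cardiac ryanodine receptor, through which calcium leaves the sarcoplasmic reticulum. It averaged 1.37 ± 0.856 FPKM in ND-RHL, 0.260 ± 0.0431 FPKM in AE-PF and 2.32 ± 0.582 FPKM in saline lungs (SD, n = 4 each), and because the transcript is long these levels rest on 2865, 525 and 5074 fragments in the 4 libraries of each group. No ND-RHL library was above all saline libraries, and 3 of 4 were below all of them.

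Sln (ENSMUSG00000042045, chr9:53850164-53854560, plus strand) encodes sarcolipin, a small inhibitor of the calcium pump of the sarcoplasmic reticulum, made in mouse atrium and in some skeletal muscles. It was at 31.3, 7.75, 10.8 and 56.3 FPKM in ND-RHL libraries 1 to 4, at 2.18, 34.1, 1.97 and 0.335 FPKM in AE-PF libraries, and at 20.7, 14.5, 21.5 and 40.9 FPKM in saline libraries. The highest value of each challenged group was in the library with skeletal muscle RNA. Sln was the only member whose ND-RHL and AE-PF libraries, and whose AE-PF and saline libraries, overlapped. Both overlaps came from AE-PF library 2 alone, and their cause was not tested. The ND-RHL mean was 2.75 times the AE-PF mean over all libraries and 11.1 times without ND-RHL library 4 and AE-PF library 2. The saline mean was 2.53 times the AE-PF mean over all libraries and 16.3 times without AE-PF library 2, and the groups then no longer overlapped.

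Nppa (ENSMUSG00000041616, chr4:148000722-148002079, plus strand) encodes atrial natriuretic peptide, the hormone that atrial muscle stores and releases. It was at 11.4, 0.215, 0.656 and 2.33 FPKM in ND-RHL libraries 1 to 4, at 0.136, 0.128, 0.0683 and 0 FPKM in AE-PF libraries, and at 3.47, 1.5, 1.15 and 5.16 FPKM in saline libraries. ND-RHL library 1 held most of the ND-RHL total, and the ND-RHL libraries spread over the widest relative range of any member. The ND-RHL libraries together held 229 Nppa fragments, the AE-PF libraries 5 (exact 95% Poisson interval 1.62 to 11.7) and the saline libraries 182. All 4 AE-PF values lay under the level that 3 fragments give, 0.192 to 0.205 FPKM. Its fitted log2 change therefore depends on the pseudocount: for ND-RHL against AE-PF it was 1.48 with 1 FPKM added and 3.21 with 0.1 FPKM added. These intervals and floors cover counting error only. Nppa overlaps the antisense gene Gm13054.

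Set side by side, the comparisons share samples and are given each on its own. For ND-RHL against AE-PF, the 4 ND-RHL libraries lay above the 4 AE-PF libraries for 9 of the 10 members, and without ND-RHL library 4 and AE-PF library 2 for all 10. Of the 15164 genes tested, 21.2% were higher without overlap and limma called 24.3% higher at an adjusted p under 0.05. Fitted log2 changes, on the scale of log2(FPKM + 1), ran from 0.83 (Ryr2) to 3.62 ± 0.449 (SE, Myl7), with a median of 2.35 over the 10 members against 0.06 over all genes tested. For AE-PF against saline, the AE-PF libraries lay below the saline libraries for 9 of the 10 members, and for all 10 without the library of skeletal muscle. Of all genes tested, 29.0% were lower without overlap and 30.2% were called lower. The log2 changes ran from -4.08 ± 0.595 (SE, Myh6) to -1.38 ± 0.231 (SE, Ryr2), with a median of -2.66 over the members and -0.03 over all genes tested. As the members were chosen for these differences, nothing is read from the counts.

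For ND-RHL against saline, the libraries of the groups overlapped for all 10 members, and of all genes tested 11.8% were lower and 18.1% higher without overlap. The log2 changes ran from -1.0 ± 0.595 (SE, Myh6) to 0.05 ± 0.369 (SE, Actc1), with a median of -0.25. For Myh6, Tnnt2, Tnni3 and Ryr2, 3 of the 4 ND-RHL libraries were below every saline library, and for Myl7, Mybpc3 and Actc1 this held for 1 of 4. The sign of the third comparison was not fixed for 6 members. Without ND-RHL library 2 the log2 change was 0.21 for Myl7, 0.07 for Myl4, 0.24 for Mybpc3 and 0.23 for Nppa, and without ND-RHL library 4 it was -0.21 for Actc1. For Sln it was 0.24 without ND-RHL library 2, 0.09 without ND-RHL library 3 and 0.09 without saline library 4. These standard errors are wide, and overlap at 4 against 4 libraries does not show that the groups were alike.

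**Figure D2:**
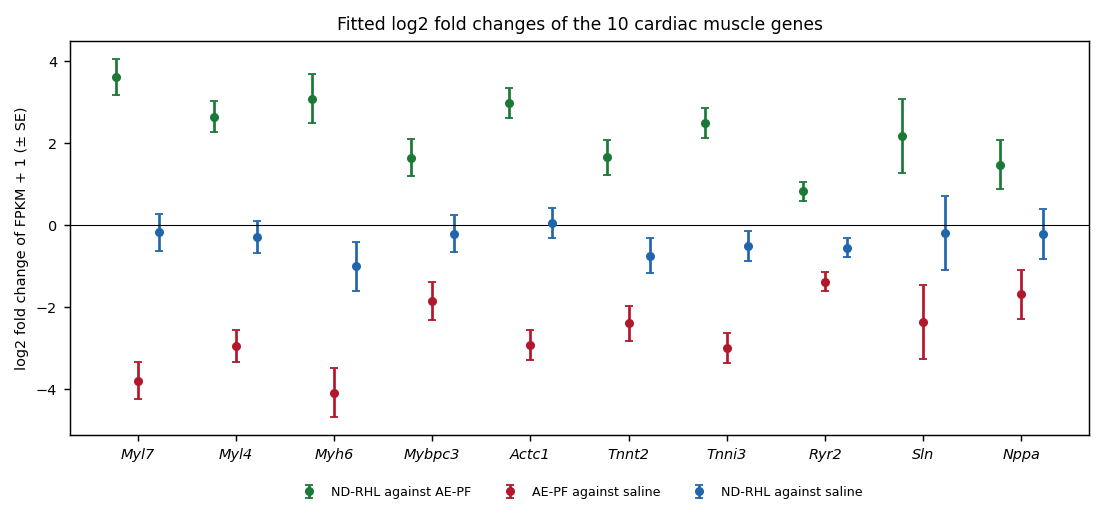
Fitted log2 change of FPKM + 1 for each cardiac muscle gene in ND-RHL against AE-PF, AE-PF against saline, plus ND-RHL against saline, with bars of 1 SE from the limma fit. The first comparison lies between 0.83 and 3.62, the second between -4.08 and -1.38, and the third between -1.0 and 0.05.

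The members varied together from library to library within a group. In ND-RHL lungs, library 2 was lowest for all 10 members, and library 1 was highest for 8, with library 4 highest for Actc1 and Sln. In AE-PF lungs, library 1 was highest for 9 members and library 2 for Sln. In saline lungs, library 4 was highest for all 10 and library 3 lowest for 8. The summed level of the 10 members was 787, 152, 348 and 532 FPKM in ND-RHL libraries 1 to 4, against 57.7, 65.8, 43.9 and 34.2 FPKM in AE-PF libraries. Sln alone made up 51.9% of the sum in AE-PF library 2. In saline libraries the summed level was 494, 387, 366 and 654 FPKM. As a share of all fragments, the 10 genes took 0.0325% to 0.210% in ND-RHL, 0.00904% to 0.0174% in AE-PF and 0.102% to 0.189% in saline libraries. The ND-RHL libraries thus spread over a wide range, which the AE-PF libraries did not enter.

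Relative to Myl7 in the same library, 3 members had ratios that differed between all 3 groups without overlap. How many of all genes tested separate the groups when divided by Myl7 was not counted. Myl7 was itself among the members with the largest fitted changes, so nothing is read from the count. Tnnt2 was at 0.122 to 0.127 times the Myl7 level in ND-RHL libraries, at 0.311 to 0.622 times in AE-PF libraries and at 0.170 to 0.222 times in saline libraries. Tnni3 was at 0.200 to 0.233 times Myl7 in ND-RHL, 0.314 to 0.665 times in AE-PF and 0.259 to 0.294 times in saline libraries. Ryr2 was at 0.00788 to 0.0153 times Myl7 in ND-RHL, 0.0263 to 0.0677 times in AE-PF and 0.0169 to 0.0242 times in saline libraries. For each, ND-RHL was lowest and AE-PF highest, and the AE-PF ratios spread more widely than those of saline libraries. Although the level of Tnnt2 differed widely between the ND-RHL libraries, its ratio to Myl7 hardly differed among them. Myh6 was at 0.255 to 0.601 times Myl7 in ND-RHL libraries, 0.448 to 0.732 times in AE-PF and 0.715 to 1.00 times in saline libraries, so that its ND-RHL and saline ratios were apart and the AE-PF ratios overlapped both. Myl4, the other light chain, was at 0.126 to 0.146 times in ND-RHL, 0.156 to 0.216 times in AE-PF and 0.137 to 0.165 times in saline libraries. Actc1 was at 0.918 to 2.61 times Myl7 in ND-RHL, 2.02 to 4.71 times in AE-PF and at most 1.61 times in saline libraries. The ratio of Sln ran from 0.117 to 0.556 in ND-RHL, from 0.0779 to 5.12 in AE-PF and from 0.161 to 0.238 in saline libraries, with the highest ratio of the ND-RHL and AE-PF groups in the library with skeletal muscle RNA. Mybpc3 was at 0.0211 to 0.0442 times in ND-RHL, 0.0639 to 0.105 times in AE-PF and 0.0251 to 0.0524 times in saline libraries, and the ratio of Nppa overlapped between all 3 groups. The AE-PF ratios rest on only 46 to 112 Myl7 fragments per library, the pattern was noticed in the data, and it was not tested. The saline mean was 15.5 times the AE-PF mean for Myl7, 6.39 times for Tnnt2, 10.6 times for Tnni3 and 8.9 times for Ryr2. The higher AE-PF ratios of these genes thus restate that the divisor, Myl7, changed more between the group means.

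**Figure D3:**
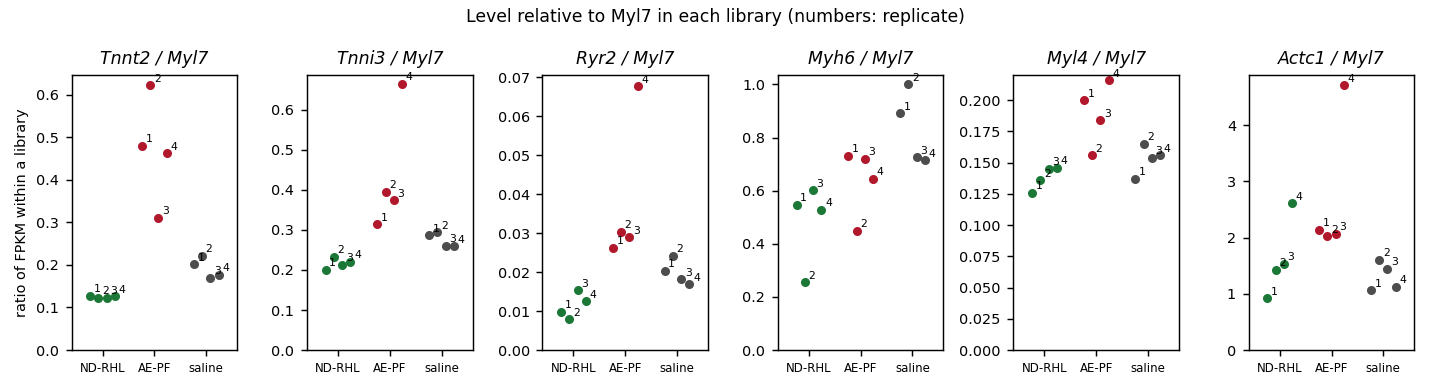
FPKM of 6 cardiac muscle genes divided by that of Myl7 in the same library, in ND-RHL, AE-PF and saline lungs, with points numbered by replicate. For Tnnt2, Tnni3 and Ryr2 the ND-RHL libraries are lowest, the saline libraries lie between, and the AE-PF libraries are highest, with AE-PF library 4 at 0.665 for Tnni3.

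Beyond the 10 members, 94 other genes known from heart muscle were listed in 6 groups, and 71 of them reached the level at which genes were tested. In AE-PF against saline, 30 of the 71 fell and 4 rose by limma at an adjusted p under 0.05, against 30.2% lower and 26.4% higher of all genes tested, with a median log2 change of -0.74 against -0.03 over all genes tested. Without ND-RHL library 4 and AE-PF library 2, 51 fell and 4 rose, where 4498 of all 15164 genes tested fell and 4266 rose. In ND-RHL against AE-PF, 24 rose and 4 fell, against 24.3% higher and 17.4% lower of all genes tested, with a median of 0.73 against 0.06 over all genes. Without the 2 libraries 29 rose and 3 fell, where 3409 of all genes tested rose and 2726 fell. These shares over all genes are the measure for each list that follows. The lists were drawn up with earlier results of these data known, so their counts and p-values are a description and no independent support. Some genes passed the filter only through the groups where they were high. Many of the listed genes are also used by skeletal or smooth muscle.

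Atrial and ventricular genes behaved as follows. In AE-PF against saline, 4 of 7 tested atrial genes fell (5 without ND-RHL library 4 and AE-PF library 2), led by Mybphl, a myosin-binding protein of atrial muscle (log2 change -2.80 ± 0.385, adjusted p = 0.000114 by limma). Kcnj3 fell by 1.49 (adjusted p = 0.00206) and Kcnj5 by 1.33 (adjusted p = 0.00157) on the same scale. Both passed the filter for testing only through saline and ND-RHL libraries, with at most 0.158 and 0.138 FPKM in AE-PF libraries. In ND-RHL against AE-PF, Mybphl rose by 2.31 (adjusted p = 0.000926), Kcnj3 by 1.20 (adjusted p = 0.0113) and Kcnj5 by 0.90 (adjusted p = 0.0211), and 1 atrial gene, Dkk3, fell. Without the 2 libraries 2 atrial genes rose and 1 fell. Kcnj5 had an adjusted p of 0.0623 without ND-RHL library 4 and AE-PF library 2. Of 5 tested genes listed as ventricular, Pln, the phospholamban that restrains the calcium pump, and Myh7, the slow beta-myosin, fell in AE-PF (log2 change -1.67, adjusted p = 0.0014, and -0.80, adjusted p = 0.000502). Both rose in ND-RHL against AE-PF, Pln by 1.10 (adjusted p = 0.0217) and Myh7 by 0.68 (adjusted p = 0.00283), and Pln had an adjusted p of 0.0706 without ND-RHL library 4 and AE-PF library 2. Without these libraries 3 of the 5 ventricular genes fell in AE-PF against saline and 1 rose in ND-RHL against AE-PF. Myh7 shares sequence with Myh6.

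Among sarcomere and Z-disc genes, 5 of 24 fell in AE-PF lungs, a share below the 30.2% of all genes tested, and 19 of 24 did so without ND-RHL library 4 and AE-PF library 2. Csrp3, the muscle LIM protein of the Z-disc, averaged 1.35 ± 1.29 FPKM in AE-PF and 10.6 ± 2.36 FPKM in saline lungs (SD, n = 4 each, log2 change -2.42, adjusted p = 0.00585 by limma). Tnnc1, cardiac troponin C, averaged 1.84 ± 0.679 FPKM in AE-PF and 12.6 ± 4.46 FPKM in saline lungs (-2.24, adjusted p = 0.000575). Actn2, the Z-disc alpha-actinin, fell by 2.16 (adjusted p = 0.0253), but leaving out AE-PF library 1, 3 or 4 or saline library 1 or 4 gave 0.0524 to 0.065. In ND-RHL against AE-PF 4 of 24 rose, a share below the 24.3% of all genes tested, and 10 of 24 without the 2 libraries. Csrp3 rose by 2.44 (adjusted p = 0.00876) and Tnnc1 by 2.19 (adjusted p = 0.00142).

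Of 15 tested calcium-handling and channel genes, 8 fell and 1 rose in AE-PF lungs, and 10 fell and 1 rose without ND-RHL library 4 and AE-PF library 2. Casq2, the calsequestrin that binds calcium in the sarcoplasmic reticulum, averaged 0.892 ± 0.443 FPKM in AE-PF and 7.57 ± 3.14 FPKM in saline lungs (SD, n = 4 each, log2 change -2.14, adjusted p = 0.00344 by limma). Hrc, another calcium-binding protein of that store, fell by 2.05 (adjusted p = 0.0143), and Popdc2, a cAMP-binding membrane protein, by 1.31 (adjusted p = 0.000189). The gene that rose was Slc8a1, the sodium-calcium exchanger. Against AE-PF, 7 rose and none fell in ND-RHL lungs (6 rose without the 2 libraries), among them Casq2 by 2.08 (adjusted p = 0.0066) and Popdc2 by 1.16 (adjusted p = 0.000963).

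Among 8 tested transcription and splicing factors, 5 fell and 2 rose in AE-PF lungs, as many as without ND-RHL library 4 and AE-PF library 2. Tbx3, a T-box factor of the conduction system that lung mesenchyme also uses, averaged 13.5 ± 3.45 FPKM in AE-PF and 30.9 ± 2.45 FPKM in saline lungs (SD, n = 4 each, log2 change -1.17, adjusted p = 6.41e-05 by limma). The splicing factor genes Rbm24 and Rbm20 fell by 0.97 (adjusted p = 0.0199) and 0.85 (adjusted p = 0.00603), and Rbm24 had an adjusted p of 0.0509 without AE-PF library 4 and 0.0584 without saline library 4. Mef2c and Mef2a, factors that many cell types use, were the 2 that rose. Without ND-RHL library 4 and AE-PF library 2, Mef2a was no longer called (adjusted p = 0.0886 by limma). Tbx5 was called higher in its place (adjusted p = 0.00722). Against AE-PF, Tbx3 rose in ND-RHL lungs by 0.54 (adjusted p = 0.0134), while Tbx5, a factor of the atrium and of lung mesenchyme, fell by 0.51 (adjusted p = 0.00438), as did Mef2a. Without the 2 libraries 2 factors rose and 1 fell. Nkx2-5, the cardiac homeobox factor, was too low to be tested and was picked after its values were seen: it had 33 fragments in ND-RHL, 1 in AE-PF and 76 in saline libraries.

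Among 12 energy genes, 6 fell and 1 rose in AE-PF lungs, and 9 fell and 1 rose without ND-RHL library 4 and AE-PF library 2. Ckmt2, the creatine kinase of muscle mitochondria, averaged 0.527 ± 0.307 FPKM in AE-PF and 9.54 ± 3.86 FPKM in saline lungs (SD, n = 4 each, log2 change -2.74, adjusted p = 0.000419 by limma). Cox6a2 and Cox8b, muscle isoforms of cytochrome oxidase subunits, fell by 2.18 (adjusted p = 0.000727) and 2.54 (adjusted p = 0.0157). The gene that rose, Lpl, encodes lipoprotein lipase, which macrophages and fat cells also make. Against AE-PF, 6 of these genes rose in ND-RHL lungs (8 without the 2 libraries), with Ckmt2 at 2.59 (adjusted p = 0.00129) and Cox6a2 at 2.12 (adjusted p = 0.00176), and Lpl fell.

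Among the up to 3 called genes with the largest changes in each cardiac list, these were the weakest calls of ND-RHL against AE-PF: Actn2 (log2 change 1.97, adjusted p = 0.0496 by limma), Hrc (1.83, adjusted p = 0.0333), Cox8b (2.29, adjusted p = 0.0349) and Rbm24 (0.95, adjusted p = 0.0301). Leaving out AE-PF library 1, 3 or 4, or ND-RHL library 1 or 4, gave each of them an adjusted p between 0.0611 and 0.115. Actn2 also lost its call, at 0.0626 to 0.0652, without ND-RHL library 3 or any 1 saline library.

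**Figure D4:**
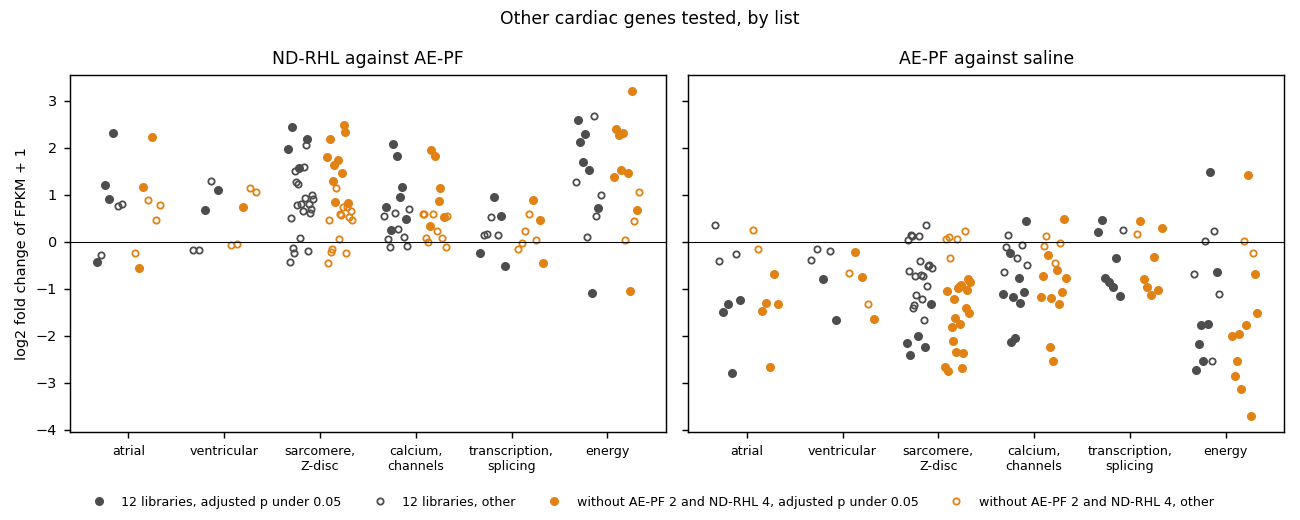
Log2 change of FPKM + 1 of the other cardiac genes tested, by list, for ND-RHL against AE-PF (left) and AE-PF against saline (right), in all 12 libraries and without ND-RHL library 4 and AE-PF library 2. Filled points have an adjusted p under 0.05 by limma, 24 of 71 higher in the left panel and 30 of 71 lower in the right panel with all libraries.

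In ND-RHL against saline, 5 of the 71 other cardiac genes fell and 2 rose, as many as without ND-RHL library 4 and AE-PF library 2, against 8.65% of all genes tested that were called lower and 13.3% called higher. The genes were not all the same: without these libraries Myocd lost its call (adjusted p = 0.0645 by limma) and a sarcomere gene gained one. Tbx3 averaged 19.6 ± 1.90 FPKM in ND-RHL and 30.9 ± 2.45 FPKM in saline lungs (SD, n = 4 each, log2 change -0.63, adjusted p = 0.0128 by limma). Gja5, a connexin of atrium and of arteries, averaged 10.7 ± 1.25 FPKM in ND-RHL and 18.0 ± 1.21 FPKM in saline lungs (-0.70, adjusted p = 0.0343). Hey2, a repressor of ventricle and vessels, and Myocd, a coactivator of serum response factor, also fell (adjusted p = 0.0269 and 0.0296), and Slc8a1 and Mef2c rose (adjusted p = 0.0206 and 0.0244). Of the 6 calls given here, that of Tbx3 held whichever library was left out. The others ended, at an adjusted p of 0.0519 to 0.0833, without 1 of several libraries: Gja5 without ND-RHL library 1, 2 or 4 or any 1 saline library, Hey2 without ND-RHL library 2 or 4 or saline library 1 or 2, Myocd without ND-RHL library 2, 3 or 4 or saline library 1 or 4, Slc8a1 without ND-RHL library 1 or saline library 2 or 3, and Mef2c without saline library 1, 2 or 3. The count was 3 without saline library 1, 3 without saline library 2, 4 without saline library 3 and 4 without ND-RHL library 4.

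RNA of other tissues differed between the libraries along with the cardiac genes. The 11 adipocyte markers summed to 24.4 to 929 FPKM in ND-RHL, 3.85 to 35.6 FPKM in AE-PF and 135 to 712 FPKM in saline libraries. The 9 genes of cartilage and large airways summed to 8.71 to 1980 FPKM in ND-RHL, 22 to 52.5 FPKM in AE-PF and 251 to 1980 FPKM in saline libraries. For both lists, as for the sum of the 10 members, the ND-RHL libraries ranked 1, 4, 3 and 2 from high to low, and saline libraries 1 and 4 lay above saline libraries 2 and 3. The AE-PF libraries had no such shared order. AE-PF library 2 was highest in all 3 sums, but Sln alone made up 51.9% of its sum of the 10 members. For the other 9 members AE-PF library 1 was highest. The counts that follow stand against 30.2% lower and 26.4% higher of all genes tested in AE-PF against saline, and 24.3% higher and 17.4% lower in ND-RHL against AE-PF. Of the adipocyte markers, 7 of 10 tested fell in AE-PF against saline and 7 of 10 rose in ND-RHL against AE-PF by limma, although limma-voom called 1 of them in the second comparison and leaving out ND-RHL library 4 and AE-PF library 2 left 4. Of the cartilage and airway genes, 3 of 4 fell and 1 of 4 rose, and limma-voom called none in the second comparison. Every adipocyte, cartilage and airway marker had fragments in each group. Their part in the cardiac differences was not tested.

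The other tissue lists had median log2 changes nearer 0 than the adipocyte list and the cartilage and airway list, in AE-PF against saline and in ND-RHL against AE-PF. The 13 mitochondrially encoded genes summed to 12800 to 19400 FPKM in ND-RHL, 10300 to 11500 FPKM in AE-PF and 13700 to 18900 FPKM in saline libraries, and 6 of 13 fell in AE-PF against saline and 6 rose in ND-RHL against AE-PF. The 10 smooth muscle markers, which include vessel and airway muscle, summed to 236 to 813 FPKM in ND-RHL, 300 to 634 FPKM in AE-PF and 395 to 510 FPKM in saline libraries, with 5 of 9 tested lower in AE-PF lungs. In ND-RHL against AE-PF 2 of the 9 rose, and none did by limma-voom. The 5 venous endothelial markers summed to 85.1 to 111 FPKM in ND-RHL, 119 to 129 FPKM in AE-PF and 104 to 126 FPKM in saline libraries. Of these, 2 rose and 1 fell in AE-PF against saline and 2 fell in ND-RHL against AE-PF. The 5 mesothelial markers summed to 44.1 to 58.7 FPKM in ND-RHL, 65.4 to 121 FPKM in AE-PF and 30.7 to 58.0 FPKM in saline libraries, 2 of 4 rising in AE-PF against saline and 1 falling in ND-RHL against AE-PF. No skeletal muscle marker of 9 tested was called in either comparison over all libraries. Without ND-RHL library 4 and AE-PF library 2, which hold most of that RNA, Myl1, a fast muscle light chain, was lower in AE-PF against saline (adjusted p = 0.00618) and Myl1 and Tnnt1, slow troponin T, were higher in ND-RHL against AE-PF (adjusted p = 0.0176 and 0.0388 by limma). Of 4 tested squamous epithelium markers, Sprr1a rose in AE-PF against saline (adjusted p = 0.0354) and none was called in ND-RHL against AE-PF over all libraries. Without the 2 libraries, Sprr1a was higher (adjusted p = 0.000145) and Rptn lower (adjusted p = 0.00018) in AE-PF against saline, and Sprr1a was lower in ND-RHL against AE-PF (adjusted p = 0.00864). Among these markers, Tnnc2 of skeletal muscle had no fragment in AE-PF libraries, and Sprr3 and Krtdap of squamous epithelium had none in saline libraries.

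**Figure D5:**
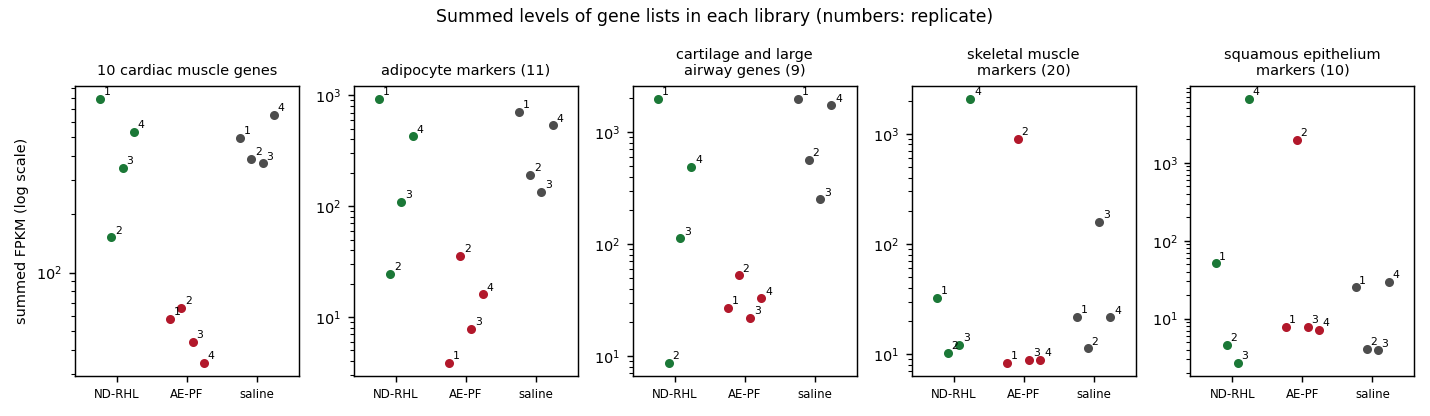
Summed FPKM of the 10 cardiac muscle genes and of 4 marker lists in each library, on a log axis, for ND-RHL, AE-PF and saline lungs, with points numbered by replicate. Cardiac, adipocyte and airway sums rank the ND-RHL libraries 1, 4, 3 and 2 from high to low and lie higher in saline libraries 1 and 4 than in 2 and 3, while skeletal muscle and squamous epithelium peak in ND-RHL library 4 and AE-PF library 2.

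The genes whose levels followed the mean of the 10 members most closely within groups were then named. The sum of the members spread most in ND-RHL libraries, from 152 to 787 FPKM. It ran from 34.2 to 65.8 FPKM in AE-PF and from 366 to 654 FPKM in saline libraries. The ND-RHL libraries therefore weigh most in the correlations that follow. After each group's mean was taken off, the Pearson correlation over the 12 libraries, all of which share the tissue differences above, was highest for Casq2 (r = 0.977, Spearman's rho 0.965), Fabp3, the fatty acid-binding protein of heart muscle (0.976, rho 0.965), and Mtr, methionine synthase (0.973, rho 0.881). They were followed by Fsd2 (0.967), Atp2a2, the calcium pump of the sarcoplasmic reticulum (0.967), Rbpms2 (0.961), Serpinf1 (0.959), Kcnj3 (0.949), mt-Nd5 (0.948) and Kcnj5 (0.947). Among the members, the correlation with this mean, in which each has its own share, had a median of 0.941 and was lowest for Sln, at 0.546. Over lists, the median was 0.834 for adipocyte markers, 0.825 for cartilage and airway genes, 0.821 for mitochondrially encoded genes, 0.803 for smooth muscle and 0.212 for skeletal muscle markers, and -0.041 over all other genes tested. For the lists of other cardiac genes the median was 0.854 for atrial, 0.693 for energy and 0.632 for sarcomere and Z-disc genes. It was 0.594 for calcium-handling and channel, 0.281 for ventricular, and 0.194 for transcription and splicing genes. All of these except the atrial median lay below the adipocyte, cartilage and airway, mitochondrial and smooth muscle medians. Mtr varied little in level, from 5.03 to 6.48 FPKM in ND-RHL, 5.09 to 5.62 FPKM in AE-PF and 5.77 to 6.24 FPKM in saline libraries. It lies on chromosome 13 between Ryr2, 75.8 kb away, and Actn2, 11.3 kb away, all on the minus strand of GRCm38.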

How the data were processed

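The authors deposited 1 table of FPKM values for 35599 genes in 12 libraries, without pooling of replicates, and its columns were matched to samples by name. Per the labels' protocols, RNA was extracted with TRIzol and RNeasy columns, selected with oligo(dT) beads, made into libraries with the NEBNext Ultra kit and sequenced on a DNBSEQ-G400. Tools listed in the submitters' processing notes are STAR 2.7.9a, Subread 2.0.1 (featureCounts), Trim Galore 0.6.6, FastQC and DESeq2 1.30.1, with mm10 and GRCm38 as builds. How reads matching several genes were treated, and the strand setting, are not given in the sources used here. The table's positions differ from GRCm38, so coordinates come from the GENCODE M21 annotation of that build, by gene identifier.

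Fragments per gene were recovered from the FPKM values as whole numbers for all 35599 genes, with a largest deviation of 5.8e-11 fragments. At 16152379 to 21667129 fragments per library, 3 fragments of a gene of 1 kb equal 0.138 to 0.186 FPKM. Because FPKM are not counts, log2(FPKM + 1) was fitted with limma (version 3.58.1, R 4.3.3) using its trended variance, and tests were 2-sided. A gene was tested where 4 or more libraries reached 1 FPKM. A gene under that level in every AE-PF library, such as Kcnj3 or Kcnj5, was thus tested only through the other groups. The tested genes were 15164, among them all 10 members, and p-values were adjusted by Benjamini-Hochberg over all of them, with a threshold of 0.05. The spread was estimated once from the 3 groups of 4, which leaves 9 residual degrees of freedom. Fold changes on this scale understate the change of low genes. The fit and the recovery of fragments were tested on simulated data. Alternatives were another pseudocount, other filters, other scalings, limma-voom on the recovered fragments, the 2 groups compared alone, a replicate block, and leaving out libraries.

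The members and all lists were chosen with earlier results of these data known. Named besides the members were up to 3 genes past the threshold with the largest change in each cardiac list and comparison, the atrial and ventricular lists by level, the most abundant gene of a tissue list, and the 10 genes most like the members. Nkx2-5, and the called genes Dkk3, Mef2a and Lpl, fall outside this rule and were named after their values were seen. Of the called genes, 1 that the rule names is counted but not reported here by name.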

Additional observations from a re-analysis of the deposited data

Results flagged for a closer look

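Among the 30 sets of 4 libraries formed by the 10 members and 3 groups, 2 held an extreme value whose gap to the nearest other library took up most of the set's range. Chance alone flags about 1 set in 20. Sln was at 34.1 FPKM in AE-PF library 2, against 0.335 to 2.18 FPKM in the other AE-PF libraries, and this is 1 of the 2 libraries with the most skeletal muscle RNA. Actc1 was at 196 FPKM in saline library 4, against 131 to 137 FPKM in the other saline libraries, where saline library 4 was highest for all 10 members.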

How the results depend on the processing

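No member changed direction in ND-RHL against AE-PF or in AE-PF against saline under any of the alternatives run. In ND-RHL against saline, 6 members with changes near 0 turned sign when 1 library was left out. Of the members' log2 changes recomputed, 604 stayed within the spread between replicates and 17 lay farther from 0, all with 0.1 FPKM added or by limma-voom, for the low genes Myl4, Mybpc3, Ryr2 and Nppa (Ryr2 in ND-RHL against AE-PF was at 1.79 with 0.1 FPKM added and 2.08 by limma-voom). With genes of at least 5 FPKM in 4 libraries, fewer genes were tested: 5710 of 9217 changed in AE-PF against saline, and of 37 other cardiac genes 17 fell in AE-PF against saline, 15 rose in ND-RHL against AE-PF and 2 changed in ND-RHL against saline. Without a filter, 3 of 94 changed in the last comparison. Without ND-RHL library 4 and AE-PF library 2, 51 fell in AE-PF against saline. Leaving out each library in turn gave 7633 to 8866 genes for AE-PF against saline, 4871 to 6348 for ND-RHL against AE-PF and 2032 to 3962 for ND-RHL against saline (3323 with all libraries, 2096 without saline library 1 and 2032 without saline library 2), and 26 to 41, 18 to 35 and 3 to 9 of the other cardiac genes in the same order. Scaling the libraries to equal FPKM totals gave a median log2 change over all genes of 0.08 in AE-PF against saline (-0.03 as reported) and -0.04 in ND-RHL against AE-PF (0.06 as reported): 3163 genes were lower and 5376 higher in AE-PF against saline (4575 and 4003 as reported), and 3874 lower and 2359 higher in ND-RHL against AE-PF (2646 and 3686 as reported). With quantile normalisation, 3223 were lower and 2789 higher in ND-RHL against AE-PF, and 1912 lower and 1474 higher in ND-RHL against saline (1312 and 2011 as reported), where limma-voom gave 1712 and 1671. Among the named cardiac genes no direction changed. Besides the losses given above, and apart from the replicate block, Actn2, Hrc, Rbm24 and Cox8b in ND-RHL against AE-PF lost their calls without a filter (adjusted p 0.0664 to 0.103) and with only the 2 groups compared (0.064 to 0.108), and Actn2, Hrc and Cox8b by limma-voom (0.0517 to 0.097). Actn2 also lost its call there with equal FPKM totals (0.0553) and with quantile normalisation (0.0604), as did Kcnj5 with quantile normalisation (0.0502), and Actn2 in AE-PF against saline without a filter (0.0548). In ND-RHL against saline, Gja5, Hey2, Myocd and Mef2c lost theirs without a filter (0.0561 to 0.076), and Myocd with only the 2 groups compared (0.0541) and without ND-RHL library 4 and AE-PF library 2 (0.0645). Causes were not tested.

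The replicate numbers do not pair the libraries: of 12 same-numbered pairs, 5 had a correlation of deviations over 0.1 (range -0.387 to 0.397), and 1 library was closest to its own number in both other groups. With the replicate block, 8471, 6061 and 2916 genes were called in AE-PF against saline, ND-RHL against AE-PF and ND-RHL against saline, and 31, 21 and 7 of the other cardiac genes. Actn2, Hrc and Cox8b had adjusted p of 0.0807, 0.0581 and 0.0548 in ND-RHL against AE-PF.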
